A study of Homo sapiens with 4 samples.

Results

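The genes described here encode the factors that start and extend protein synthesis. They were chosen by name alone: every row of the count table whose symbol begins with EIF or EEF and a digit, without read-through genes (symbols with a hyphen) and without the EIF2AK kinases. The rule gave 65 of 17791 genes, and the methyltransferases and the kinase that modify elongation factors came with it. RNA was sequenced from engineered prostate cancer tissues, human cells grown as 3D cultures, at day 15 of culture. Each of 4 groups had 1 library: LNCaP cells with BJ-5ta fibroblasts (LNCaP coculture), LNCaP cells alone (LNCaP monoculture), PC-3 cells with BJ-5ta fibroblasts (PC-3 coculture) and PC-3 cells alone (PC-3 monoculture). LNCaP is an established prostate cancer line labelled androgen-dependent, and PC-3 is one labelled castration-resistant (CRPC-ne, a suffix the labels do not explain). BJ-5ta are normal fibroblasts that were made immortal. No treatment was given, each cell type came from 1 line, and the cocultures were seeded at 5 cancer cells to 1 fibroblast. The growth protocol describes PC-3 tissues only, which were cast in a poly(ethylene glycol)-fibrinogen hydrogel and kept in PC-3 medium, so the hydrogel and medium of the LNCaP tissues are not known.

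Initiation begins when eIF2 brings the initiator tRNA to the small ribosomal subunit, which eIF3 loads onto an mRNA whose cap is held by eIF4E, the scaffold eIF4G and the helicase eIF4A. During elongation eEF1A delivers each aminoacyl-tRNA, the eEF1B subunits recharge eEF1A with GTP, and eEF2 moves the ribosome along the mRNA. Many of these mRNAs, like those of ribosomal proteins, begin with a C followed by a run of pyrimidines, the 5′ terminal oligopyrimidine (TOP) motif, and in cancer cells their translation is known to depend on the mTOR kinase.

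Total estimated counts were close, from 15520243 to 15865690 per library. Levels are given as CPM, counts per 1000000 after scaling with TMM factors. There were no replicates and no test was run: each difference compares 2 libraries, and every 95% interval and every floor of 3 counts covers counting error only. The labelled lines were checked against markers. The 6 LNCaP markers summed to 10218 CPM in LNCaP coculture and 8367 CPM in LNCaP monoculture, against 413 CPM in PC-3 coculture and 462 CPM in PC-3 monoculture, where 2 of them, KLK3 and KLK2, were at 0. The 5 of 6 PC-3 markers in the table summed to 77.9 CPM in LNCaP coculture and 0.633 CPM in LNCaP monoculture, against 442 CPM in PC-3 coculture and 437 CPM in PC-3 monoculture. The 10 BJ-5ta markers summed to 815 CPM in LNCaP coculture against 1.01 CPM in its monoculture, and to 459 CPM in PC-3 coculture against 39.0 CPM in its monoculture. Markers of endothelial cells (2 of 3 in the table) summed to 36.6 CPM in LNCaP coculture against 10.8 CPM in its monoculture, and to 69.8 CPM in PC-3 coculture against 50.5 CPM in its monoculture, and CD68, the 1 immune marker of 4 in the table, ranged from 4.24 to 56.7 CPM. In bulk RNA, fewer cells of a type and less RNA per cell cannot be told apart, so a coculture value is the sum over cancer cells and fibroblasts.

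The starts of the genes were read from RefSeq (GRCh38.p14), which gave a window for 52 of the 65. Each line below holds 15 bases before an annotated start and 20 from it, on the gene's own strand, and capitals mark a run of at least 5 C or T bases that opens with C exactly at that start. The first 9 carry such a run, the last 5 do not, and they are shown because, of the 13 translation factor genes with a run, all but EIF2D had higher levels in LNCaP than in PC-3 tissues. The 5 do not stand for all 39 genes without a run. Of those 39, 19 were at least 25% higher and 9 at least 20% lower in LNCaP than in PC-3 coculture.
EEF1A1 (chr6:73521013-73521047, minus strand): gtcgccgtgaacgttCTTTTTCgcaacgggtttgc
EEF2 (chr19:3985444-3985478, minus strand): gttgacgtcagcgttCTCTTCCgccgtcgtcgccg
EEF1B2 (chr2:206159880-206159914, plus strand): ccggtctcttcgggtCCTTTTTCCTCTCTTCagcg
EIF4B (chr12:53006441-53006475, plus strand): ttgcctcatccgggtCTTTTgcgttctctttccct
EIF4A2 (chr3:186783562-186783596, plus strand): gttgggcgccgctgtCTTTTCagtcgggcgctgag
EIF3F (chr11:7987322-7987356, plus strand): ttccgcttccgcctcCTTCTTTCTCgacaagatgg
EIF3M (chr11:32583816-32583850, plus strand): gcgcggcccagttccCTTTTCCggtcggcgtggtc
EIF2S3 (chrX:24054941-24054975, plus strand): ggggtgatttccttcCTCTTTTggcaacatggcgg
EIF2D (chr1:206612446-206612480, minus strand): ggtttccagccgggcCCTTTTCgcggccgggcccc
EEF1G (chr11:62573872-62573906, minus strand): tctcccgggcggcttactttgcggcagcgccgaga
EIF2B1 (chr12:123633667-123633701, minus strand): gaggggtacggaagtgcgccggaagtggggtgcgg
EIF2S1 (chr14:67360313-67360347, plus strand): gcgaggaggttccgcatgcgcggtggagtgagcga
EIF6 (chr20:35284698-35284732, minus strand): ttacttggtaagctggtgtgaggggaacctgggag
EIF4EBP2 (chr10:70404130-70404164, plus strand): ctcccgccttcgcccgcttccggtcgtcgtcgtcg
A run of this kind was found at a start of 13 of the 52 translation factor genes (25%), of 5.14% of the 27305 genes with a window, of 7.03% of the 11909 of those at 1 CPM or more in a library, and of 48 of 64 cytosolic ribosomal protein genes (75%). EEF1B2 and EIF2S3B each have another annotated start without a run. A match describes the letters at an annotated start and does not show where transcription began in these cells.

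Translation factor mRNAs took a larger share of the LNCaP than of the PC-3 libraries, 2.50% of counts in LNCaP coculture and 2.73% in LNCaP monoculture, against 1.31% in PC-3 coculture and 1.44% in PC-3 monoculture. EEF1A1 and EEF2 made up most of that gap. Without them the shares were 1.26% in each LNCaP library, 0.953% in PC-3 coculture and 1.02% in PC-3 monoculture. By count, EEF1A1 ranked 1 of all genes in both LNCaP libraries, 10 in PC-3 coculture and 4 in PC-3 monoculture. EEF2 ranked 5 in LNCaP coculture, 3 in LNCaP monoculture, 47 in PC-3 coculture and 40 in PC-3 monoculture.

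**Figure D1:**
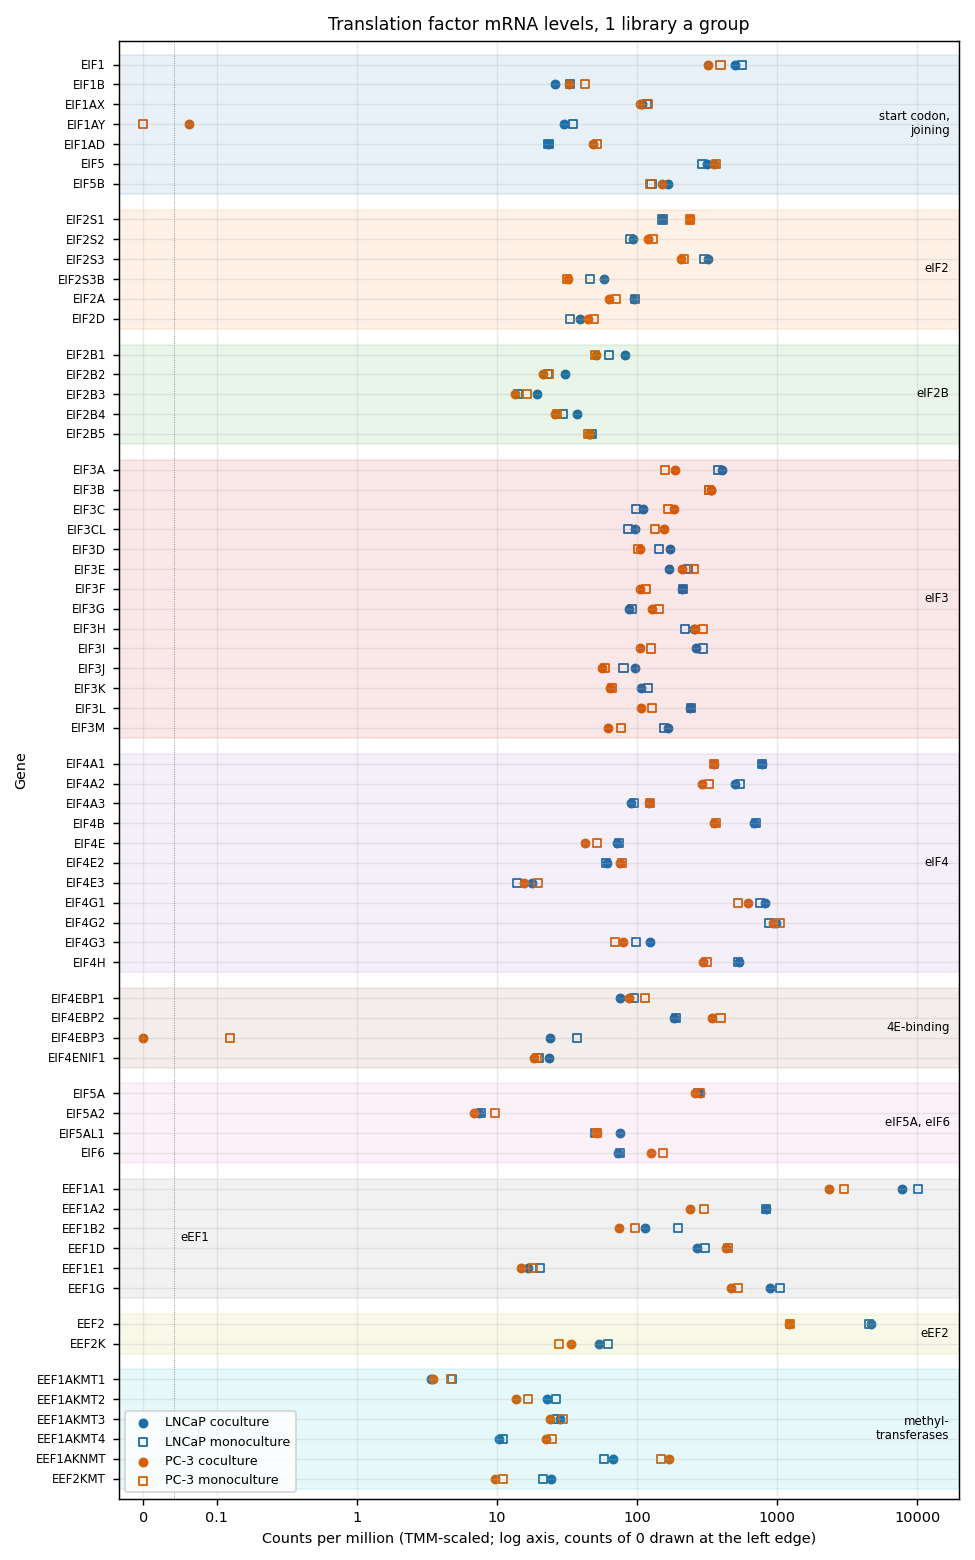
Level of each of the 65 genes in each of the 4 libraries, in CPM on a log axis, with genes grouped by role. EEF1A1 and EEF2 lie furthest to the right in the LNCaP libraries, and EIF1AY and EIF4EBP3 are at or near 0 in the PC-3 libraries only.

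The first comparison is between the cancer lines. In the monocultures, 11 of the 65 genes were at least 2-fold higher in LNCaP, against 22.1% of all genes measured, and 5 were at least 2-fold lower, against 23.6%. A smaller threshold of 25% higher or 20% lower, the same step on the log2 scale, was passed by 30 genes upward (background 40.9%) and 18 downward (38.7%), with 37 genes above 0 and 28 below, a median log2 fold of 0.07, and 0.04 over all genes. In the cocultures 12 were at least 2-fold higher in LNCaP (background 20.7%) and 3 lower (23.6%), and 35 were at least 25% higher (39.5%) and 13 at least 20% lower (39.7%). Their median in the cocultures was 0.51, against 0.01 over all genes. At 2-fold the share of translation factors was below the background in each direction, and at the smaller thresholds it was above the background among higher genes and below it among lower genes.

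Elongation factors were the group with the highest median. EEF1A1 (chromosome 6, 73515750 to 73521032), the main carrier of aminoacyl-tRNA, had 7757 CPM in LNCaP coculture and 10189 CPM in LNCaP monoculture, against 2357 CPM in PC-3 coculture and 3004 CPM in PC-3 monoculture. EEF2 (chromosome 19, 3976056 to 3985463), the translocase, had 4662 CPM in LNCaP coculture and 4533 CPM in LNCaP monoculture, against 1213 CPM in PC-3 coculture and 1241 CPM in PC-3 monoculture. Both LNCaP libraries lay above both PC-3 libraries for either gene. In the monocultures EEF1A1 was 3.39-fold higher in LNCaP (95% counting interval 3.36 to 3.43) and EEF2 3.65-fold higher (3.60 to 3.71). The coculture folds were 3.29 for EEF1A1 and 3.84 for EEF2.

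EEF1A2 (chromosome 20, 63488014 to 63499083), the eEF1A paralogue otherwise typical of neurons and muscle, had 834 CPM in LNCaP coculture and 837 CPM in LNCaP monoculture, against 238 CPM in PC-3 coculture and 302 CPM in PC-3 monoculture. The LNCaP libraries were almost level, and the PC-3 coculture was the lowest of the 4. It was 2.78-fold higher in LNCaP in monoculture (2.69 to 2.87) and 3.50-fold higher in coculture (3.38 to 3.63). Per kilobase of the main annotated transcript, the level of EEF1A1 was 8.13 times that of EEF1A2 in LNCaP coculture, 10.6 times in LNCaP monoculture, 8.66 times in PC-3 coculture and 8.71 times in PC-3 monoculture. With the longest annotated transcript in its place these ratios were 4.22 to 5.52. EEF1A1 was thus the more abundant paralogue in every library by either length.

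The exchange subunits of eEF1 were split. EEF1B2, which encodes the alpha exchange subunit, had 114 CPM in LNCaP coculture and 198 CPM in LNCaP monoculture, against 74.1 CPM in PC-3 coculture and 97.1 CPM in PC-3 monoculture. EEF1G, a structural subunit, had 889.6 CPM in LNCaP coculture and 1042 CPM in LNCaP monoculture, against 467 CPM in PC-3 coculture and 522 CPM in PC-3 monoculture. EEF1D, the delta exchange subunit, ran the other way, with 269.6 CPM in LNCaP coculture and 305 CPM in LNCaP monoculture, against 435 CPM in PC-3 coculture and 449 CPM in PC-3 monoculture. The monoculture log2 folds, LNCaP over PC-3, were 1.02 for EEF1B2, 1.00 for EEF1G and -0.56 for EEF1D. EEF1E1, a scaffold protein of the synthetase complex, had a log2 fold of 0.15 with an interval of the fold that included 1 (0.942 to 1.30). EEF2K, the kinase that inhibits eEF2, had 53.9 CPM in LNCaP coculture and 61.9 CPM in LNCaP monoculture, against 34.1 CPM in PC-3 coculture and 27.9 CPM in PC-3 monoculture. Of the 8 eEF1 and eEF2 genes, 7 were above 0 in either comparison of lines, and the medians were 0.80 in the cocultures and 1.08 in the monocultures.

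Among cap-binding and helicase factors, 7 of 11 genes were at least 25% higher in LNCaP in either comparison. EIF4A1, the main helicase, had 784 CPM in LNCaP coculture and 778 CPM in LNCaP monoculture, against 357 CPM in PC-3 coculture and 353 CPM in PC-3 monoculture. The helicase cofactor EIF4B had 689 CPM in LNCaP coculture and 711 CPM in LNCaP monoculture, against 357 CPM in PC-3 coculture and 365 CPM in PC-3 monoculture. Libraries of one line differed little for these genes, and the lines stood apart by about 2-fold, with monoculture folds of 2.21 (2.14 to 2.28) for EIF4A1 and 1.95 (1.89 to 2.01) for EIF4B. The other higher genes, by monoculture log2 fold, were the cofactor EIF4H (0.75), the helicase paralogue EIF4A2 (0.74), the scaffold EIF4G1 (0.52), the cap-binding protein EIF4E (0.51) and the scaffold paralogue EIF4G3 (0.48). EIF4E itself had 72.3 CPM in LNCaP coculture and 73.9 CPM in LNCaP monoculture, against 42.8 CPM in PC-3 coculture and 51.9 CPM in PC-3 monoculture. Lower in LNCaP were the cap-binding paralogue EIF4E2 (log2 fold -0.31 in coculture and -0.39 in monoculture), EIF4A3, the helicase of the exon junction complex (-0.44 and -0.37), and, in the monocultures, EIF4E3 (-0.48). EIF4G2, a scaffold that does not bind eIF4E, lay within the smaller thresholds in both comparisons (0.07 in coculture and -0.24 in monoculture).

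The eIF4E-binding proteins, which compete with eIF4G for eIF4E, gave a wide spread, with monoculture log2 folds from -1.06 to 7.21. EIF4EBP2 had 185 CPM in LNCaP coculture and 189 CPM in LNCaP monoculture, against 345 CPM in PC-3 coculture and 395 CPM in PC-3 monoculture, and was 2.09-fold lower in LNCaP monoculture (2.00 to 2.19). EIF4EBP1 had 75.2 CPM in LNCaP coculture and 94.8 CPM in LNCaP monoculture, against 87.7 CPM in PC-3 coculture and 114 CPM in PC-3 monoculture. EIF4EBP3 (chromosome 5, 140547662 to 140549576) had 374 counts in LNCaP coculture and 588 in LNCaP monoculture, against 0 in PC-3 coculture and 2 in PC-3 monoculture. That made it at least 126-fold higher in LNCaP coculture and 297-fold higher in LNCaP monoculture (81.9 to 2459.9). Its sequence is also part of the read-through gene ANKHD1-EIF4EBP3, which was counted in all 4 libraries, with 1190 counts in LNCaP coculture, 823 in LNCaP monoculture, 842 in PC-3 coculture and 694 in PC-3 monoculture, so how reads were divided between the 2 entries is uncertain. EIF4ENIF1, which carries eIF4E into the nucleus, had log2 folds of 0.35 in the cocultures and 0.04 in the monocultures.

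Subunits of eIF3, which assemble into 1 complex, did not move together between the lines. In the monocultures 8 of 14 were at least 25% higher in LNCaP and 4 at least 20% lower. EIF3A, the largest scaffold subunit, had 405 CPM in LNCaP coculture and 379.7 CPM in LNCaP monoculture, against 188 CPM in PC-3 coculture and 159.6 CPM in PC-3 monoculture. EIF3M had 167 CPM in LNCaP coculture and 155 CPM in LNCaP monoculture, against 61.6 CPM in PC-3 coculture and 76.9 CPM in PC-3 monoculture. The LNCaP levels were about 2-fold or more above those of PC-3 for both subunits, and for EIF3I as well (fold 2.48 in coculture and 2.35 in monoculture). EIF3F, EIF3K, EIF3L, EIF3D and EIF3J had monoculture log2 folds of 0.43 to 0.92, and EIF3B, a core subunit, had 336 CPM in LNCaP coculture and 328 CPM in LNCaP monoculture, against 336 CPM in PC-3 coculture and 327 CPM in PC-3 monoculture. Below 0 were EIF3C (-0.75), EIF3CL (-0.63), EIF3G (-0.62), EIF3H (-0.41) and EIF3E (-0.14). EIF3C and EIF3CL are near-identical copies that can trade reads. Their sum had 208 CPM in LNCaP coculture and 185 CPM in LNCaP monoculture, against 340.2 CPM in PC-3 coculture and 300.1 CPM in PC-3 monoculture.

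The subunits of eIF2 were split as well. EIF2S1, the alpha subunit that stress kinases phosphorylate, had 151 CPM in LNCaP coculture and 152 CPM in LNCaP monoculture, against 238 CPM in either PC-3 library. EIF2S3, the GTP-binding gamma subunit, had 319 CPM in LNCaP coculture and 302 CPM in LNCaP monoculture, against 205 CPM in PC-3 coculture and 216 CPM in PC-3 monoculture. The alpha subunit was therefore lower and the gamma subunit higher in LNCaP, with monoculture log2 folds of -0.65 and 0.48, and the beta subunit EIF2S2 was lower (-0.55). Summed with its near-copy EIF2S3B, EIF2S3 was 1.59-fold higher in LNCaP coculture and 1.40-fold higher in LNCaP monoculture. The alternative initiator tRNA carriers went opposite ways in the monocultures, EIF2A at 0.46 and EIF2D at -0.57.

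Factors of start codon choice held the other near-absent gene. EIF1AY (chromosome Y, 20575776 to 20593154), the Y-linked copy of the scanning factor eIF1A, had 470 counts in LNCaP coculture and 548 in LNCaP monoculture, against 1 in PC-3 coculture and 0 in PC-3 monoculture. It was 475-fold higher in LNCaP coculture (84.8 to 18793) and at least 185-fold higher in LNCaP monoculture. The other 16 Y-linked genes of the table had 19687 counts in LNCaP coculture and 16243 in LNCaP monoculture, against 102 in PC-3 coculture and 1 in PC-3 monoculture. EIF1AX, the X-linked copy, was close to level, with 109 CPM in LNCaP coculture and 117 CPM in LNCaP monoculture, against 105 CPM in PC-3 coculture and 119.9 CPM in PC-3 monoculture. EIF1, which guards start codon fidelity, was higher in LNCaP (log2 fold 0.65 in coculture and 0.51 in monoculture), EIF1B was lower (-0.33 and -0.35), EIF1AD, a relative of eIF1A, was lower (-1.08 and -1.14), and EIF5, which triggers GTP hydrolysis on eIF2, was lower in the monocultures (-0.34). EIF5B, the GTPase of subunit joining, had log2 folds of 0.14 and 0.02.

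EIF6, which keeps the large subunit from joining too early, had 72.7 CPM in LNCaP coculture and 75.9 CPM in LNCaP monoculture, against 126 CPM in PC-3 coculture and 154 CPM in PC-3 monoculture, and was 2.02-fold lower in LNCaP monoculture (1.89 to 2.17). EIF5A, which helps ribosomes through difficult peptide bonds, was within the smaller thresholds in both comparisons of lines (0.12 in coculture and -0.04 in monoculture), and its paralogue EIF5A2 was low in every library (6.89 to 9.65 CPM). Among the methyltransferases, EEF1AKNMT (RefSeq symbol METTL13), which modifies eEF1A, had 67.9 CPM in LNCaP coculture and 58.1 CPM in LNCaP monoculture, against 170.4 CPM in PC-3 coculture and 149 CPM in PC-3 monoculture. EEF1AKMT4 was lower in LNCaP too (-1.10 in coculture and -1.17 in monoculture), and EEF2KMT, which modifies eEF2, was higher (1.33 and 0.94). EEF1AKMT2 was higher as well (0.72 and 0.67), EEF1AKMT1 lay near 0 (-0.04 and 0.02), and EEF1AKMT3 was within the smaller thresholds (0.24 and -0.14). The methyltransferases were thus neither all higher nor all lower in the line with more EEF1A1 and EEF2.

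**Figure D2:**
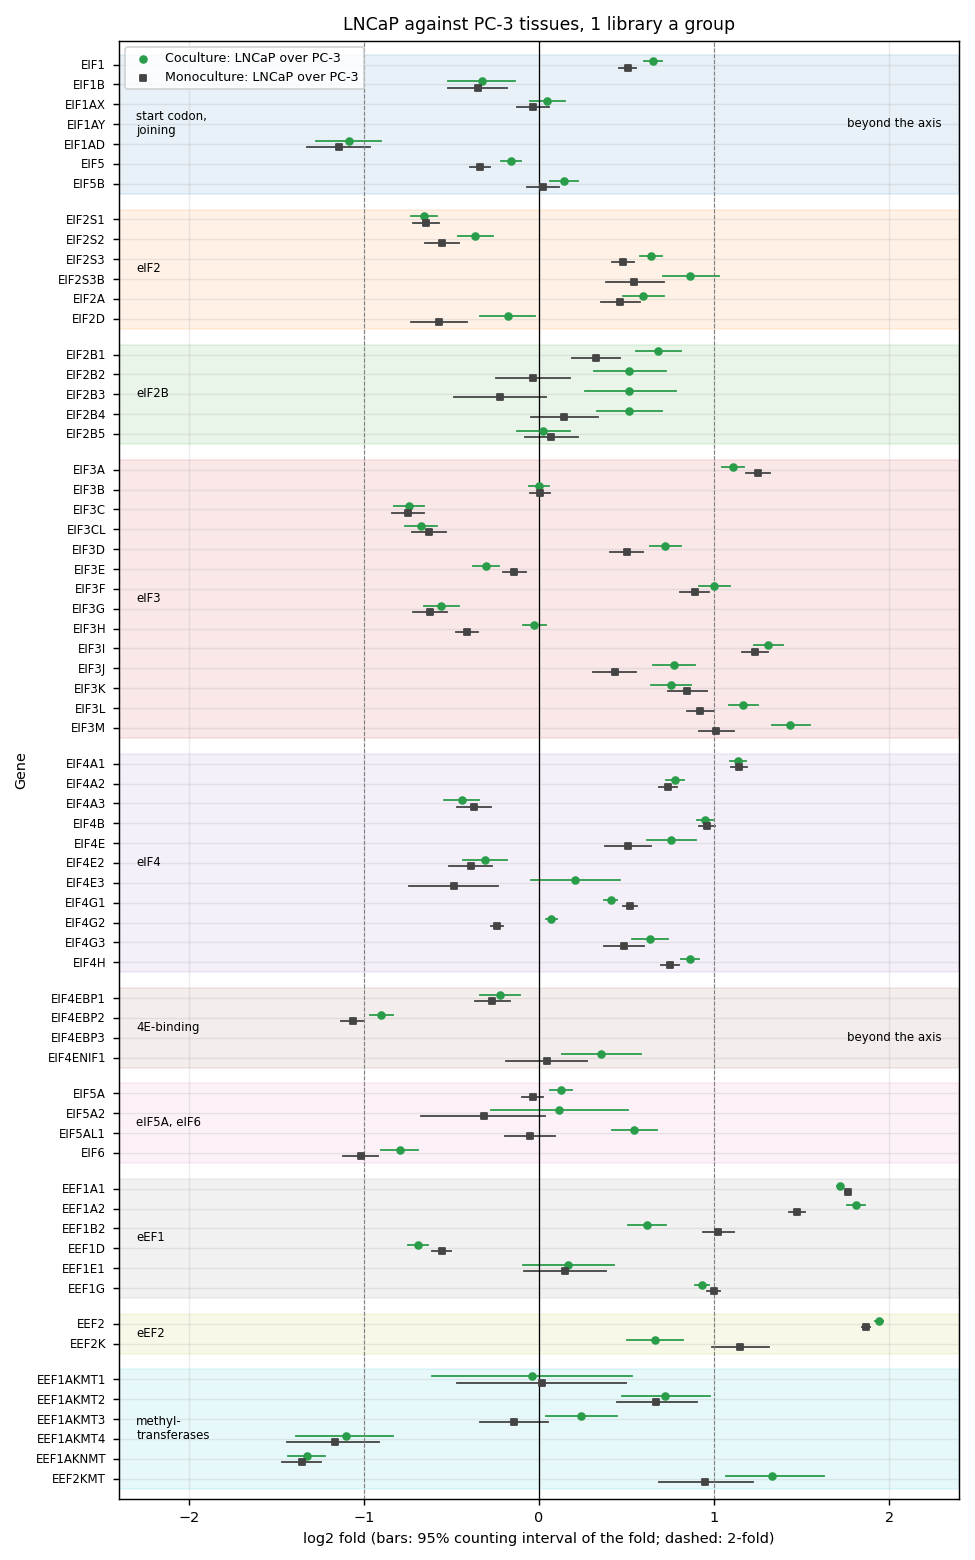
Log2 fold of each gene, LNCaP over PC-3, in the cocultures (circles) and in the monocultures (squares), with bars for the 95% counting interval of the fold. Elongation factors EEF1A1, EEF1A2 and EEF2 lie furthest to the right, eIF3 and eIF2 subunits lie on both sides of 0, and EIF1AY and EIF4EBP3 are beyond the axis.

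Translation factor genes with a pyrimidine run at an annotated start were higher in LNCaP, all but 1. In the cocultures 12 of 13 were at least 25% higher and 0 at least 20% lower (median 0.77), and in the monocultures 12 of 13 were higher and 1 lower by these thresholds (median 0.85). After a correction for transcript length and GC content, chosen after seeing the data, these counts were 12 in the cocultures and 10 in the monocultures. The exception was EIF2D, with log2 folds of -0.18 in coculture and -0.57 in monoculture. Of the 39 genes with a window and no run, 19 were higher and 9 lower in the cocultures (median 0.21), and 14 were higher and 12 lower in the monocultures (median 0.01). A list of 9 translation factors known as TOP mRNAs gave a weaker split, with 6 higher and 1 lower in the cocultures and 6 higher and 2 lower in the monocultures, the lower ones being EEF1D in both and EIF3H in the monocultures. Of that list, EEF1D, EIF3E and EIF3H had no window, so they could not count among the 13. Each of them was below 0 in both comparisons of lines. EIF2S3 and EIF2S3B count among the 13 and resemble each other, so they are not separate instances. Of other genes with a run, ribosomal protein genes left out, 41.9% of 769 were at least 25% higher in LNCaP than in PC-3 coculture, against 38.7% of those without a run, and 42.7% of 765 in LNCaP than in PC-3 monoculture, against 40.1%. With a mean of 20 CPM or more, where most translation factors lie, 43.0% of 519 genes with a run were higher and 30.6% lower in LNCaP coculture, against 37.4% and 36.1% of 6625 without. The 80 cytosolic ribosomal protein genes had medians of 0.83 in the cocultures and 1.16 in the monocultures, and 60 and 69 of them were at least 25% higher. The run was searched after the direction of EEF1A1, EEF2 and the ribosomal protein genes was known, so these counts are a description.

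**Figure D3:**
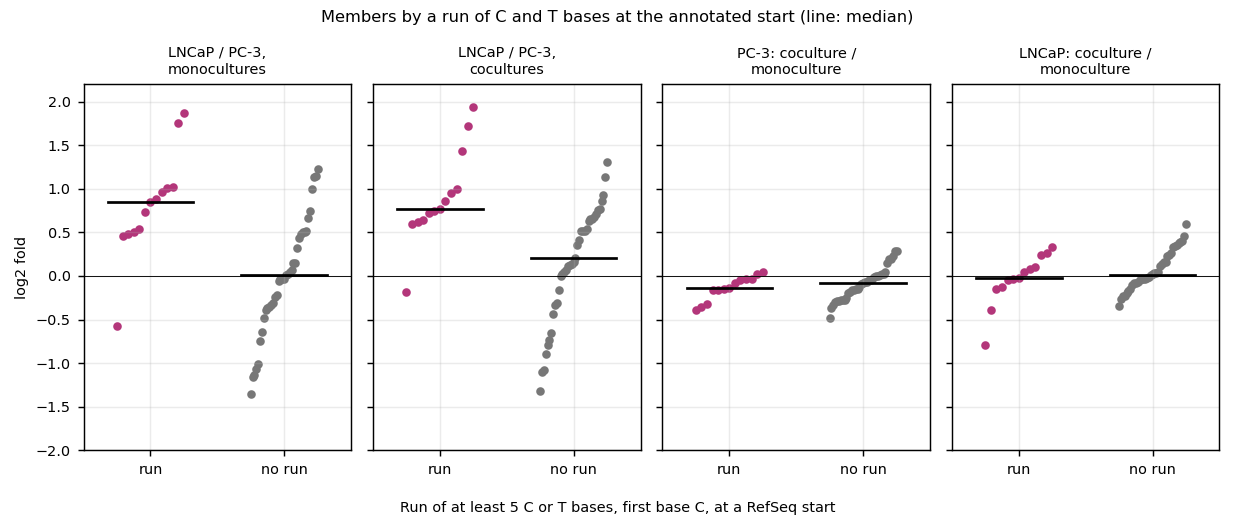
Log2 folds of translation factor genes with and without a run of at least 5 C or T bases that opens with C at a RefSeq start, in each of the 4 comparisons, with the median as a line. Genes with a run sit higher in LNCaP over PC-3 (medians 0.77 and 0.85), and in the coculture comparisons the medians of the sets lie close to 0. EIF1AY and EIF4EBP3 are left out of the drawing but count in the medians.

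Regulators of these factors were counted against the monoculture background of 40.9% higher and 38.7% lower. Of 10 genes of the eIF2 alpha kinases and phosphatase, 2 were at least 25% higher and 6 at least 20% lower in LNCaP monoculture. EIF2AK2, the kinase activated by double-stranded RNA, had 93.7 CPM in LNCaP coculture and 77.7 CPM in LNCaP monoculture, against 343 CPM in PC-3 coculture and 283 CPM in PC-3 monoculture. PPP1R15A, the inducible phosphatase subunit, had 21.4 CPM in LNCaP coculture and 14.4 CPM in LNCaP monoculture, against 111 CPM in PC-3 coculture and 134 CPM in PC-3 monoculture. Of 19 mTOR and MNK pathway genes, 7 were higher and 5 lower in LNCaP monoculture by the same thresholds, both shares below that background. The one furthest above was MKNK2, which phosphorylates eIF4E, with 1302 CPM in LNCaP monoculture against 139 CPM in PC-3 monoculture. Of 4 genes listed for eIF5A hypusination 0 were higher and 2 lower in LNCaP monoculture. The lower ones were the polyamine genes ODC1 (log2 fold -1.80) and AZIN1 (-0.49). The hypusination enzymes DHPS (0.02) and DOHH (0.29) were within the thresholds. Of 9 termination and recycling genes 5 were higher and 1 lower, of 7 poly(A)-binding genes 2 were higher and 3 lower, and of 3 selenocysteine genes 2 were higher and 0 lower.

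The second comparison sets each coculture against its monoculture, the question being what differed when fibroblasts were included. Differences of translation factors were small. In the LNCaP coculture 9 of 65 genes were at least 25% higher (background 16.8%) and 7 at least 20% lower (19.3%), and the median log2 fold was -0.01. In the PC-3 coculture 0 of 63 measured genes were at least 25% higher (background 11.8%) and 8 at least 20% lower (12.3%), and the median was -0.14. The share of lower genes in PC-3 was near the background, and the other 3 shares were below it. All genes had a median of 0.00 in either comparison. A 2-fold difference was reached by 0 genes in either direction in either coculture, where the background was 4.56% higher and 3.03% lower in LNCaP and 2.22% higher and 1.01% lower in PC-3. EIF1AY and EIF4EBP3 were under 1 CPM in both PC-3 libraries and were not measured in that comparison. In PC-3, 14 translation factors were above 0 and 49 below, where 7319 of all measured genes were above 0 and 7098 below. The split of the translation factors did not change under the other scalings, and it was 17 above and 46 below after the length and GC correction. In LNCaP it was 32 above and 33 below, and 41 and 24 with DESeq2 size factors. Among genes with a mean of 20 CPM or more, 0 of 55 translation factors passed 25% upward and 5 passed 20% downward in PC-3 coculture, where 490 of 8857 genes were higher and 627 lower.

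**Figure D4:**
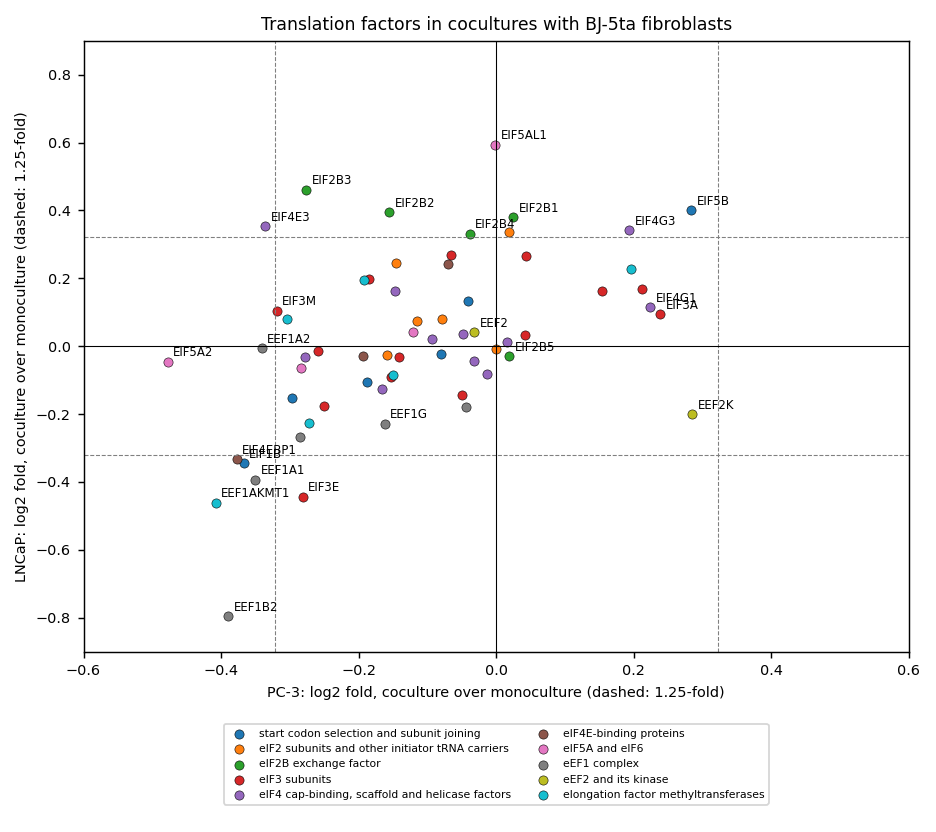
Log2 fold of each gene in coculture over monoculture, for PC-3 on the x axis and LNCaP on the y axis, coloured by role, with dashed lines at 25% higher and 20% lower. EEF1A1, EEF1AKMT1, EEF1B2, EIF1B and EIF4EBP1 lie below the lower line in both, 4 eIF2B subunits lie above the upper line for LNCaP and 0 for PC-3, and 0 genes lie above it in both.

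EEF1B2 was the lowest gene in LNCaP coculture, at 114 CPM against 198 CPM in its monoculture, 1.74-fold lower (1.64 to 1.84), and in PC-3 coculture, at 74.1 CPM against 97.1 CPM, it was 1.31-fold lower (1.21 to 1.42). EEF1A1 was 1.31-fold lower (1.30 to 1.32) in LNCaP coculture and 1.27-fold lower (1.26 to 1.29) in PC-3 coculture. The scaffold of the synthetase complex EEF1E1 and the structural subunit EEF1G were below 0 in both as well, at -0.27 and -0.23 in LNCaP and -0.29 and -0.16 in PC-3. After the length and GC correction EEF1G was still below 0 in both (-0.16 in LNCaP and -0.11 in PC-3), whereas EEF1E1 was at -0.10 in LNCaP and 0.0050 in PC-3, where its direction was lost. EEF1A2 parted from EEF1A1 in LNCaP, where it was level, at 834 CPM in the coculture and 837 CPM in the monoculture (fold 0.996, 0.972 to 1.02), whereas in PC-3 it was 1.27-fold lower (1.21 to 1.32). EEF2 was close to level in both, with folds of 1.03 (1.02 to 1.04) in LNCaP and 0.978 (0.959 to 0.998) in PC-3.

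Beside EEF1A1 and EEF1B2, the genes at least 20% lower in both cocultures were EEF1AKMT1, a lysine methyltransferase of eEF1A, EIF1B and EIF4EBP1. EIF4EBP1 had 75.2 CPM in LNCaP coculture against 94.8 CPM in its monoculture, and 87.7 CPM in PC-3 coculture against 114 CPM in its monoculture. EIF1B was 1.27-fold lower in LNCaP (1.11 to 1.45) and 1.29-fold lower in PC-3 (1.15 to 1.45). EEF1AKMT1 stood below 5 CPM throughout, and the intervals of its folds included 1 in both. Beside EEF1A2, the other lower genes in PC-3 coculture were EIF5A2 (log2 fold -0.48) and EIF4E3 (-0.34), and in LNCaP coculture EIF4EBP3 (-0.62) and EIF3E (-0.44). The read-through gene ANKHD1-EIF4EBP3, which shares sequence with EIF4EBP3, went the other way in LNCaP coculture (log2 fold 0.56). How reads were divided between these entries is uncertain, so the lower EIF4EBP3 value is uncertain too. EIF3E, an eIF3 subunit, had 170.1 CPM in LNCaP coculture against 231 CPM in its monoculture, the one eIF3 subunit past these thresholds in either coculture.

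Of the 9 higher genes in LNCaP coculture, 4 encode subunits of the exchange factor eIF2B, which reloads eIF2 with GTP. EIF2B1 had 81.7 CPM in LNCaP coculture against 62.8 CPM in its monoculture, a fold of 1.30 (1.20 to 1.42). EIF2B3 had 19.4 CPM in LNCaP coculture against 14.1 CPM in its monoculture, a fold of 1.38 (1.16 to 1.65), EIF2B2 a fold of 1.32 (1.15 to 1.51) and EIF2B4 one of 1.26 (1.11 to 1.43). The fifth subunit, the catalytic EIF2B5, was level at 46.4 CPM in LNCaP coculture and 47.4 CPM in its monoculture. In PC-3 the same subunits had coculture log2 folds of 0.02 (EIF2B1), -0.16 (EIF2B2), -0.28 (EIF2B3), -0.04 (EIF2B4) and 0.02 (EIF2B5), so 4 subunits were at least 25% higher in LNCaP and 0 in PC-3. After the length and GC correction, EIF2B3 (0.49) and EIF2B4 (0.37) were still at least 25% higher in LNCaP, and EIF2B1 (0.30) and EIF2B2 (0.27) fell short of it.

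The other higher genes in LNCaP coculture were EIF5AL1, EIF5B, EIF4E3, EIF4G3 and EIF2S3B. EIF5B had 168 CPM in LNCaP coculture against 127 CPM in its monoculture (fold 1.32, 1.24 to 1.40), and 152 CPM in PC-3 coculture against 125 CPM in its monoculture (1.22, 1.15 to 1.29). It was among the highest genes in both lines. EIF5AL1 is a near-copy of EIF5A, and their sum was 1.10-fold higher in LNCaP coculture (1.06 to 1.15), below the 1.51-fold of EIF5AL1 alone. EIF2S3B is a near-copy of EIF2S3, and their sum was 1.09-fold higher (1.05 to 1.13), below the 1.26-fold of EIF2S3B alone. EIF4E3 passed the smaller thresholds in opposite directions, with log2 folds of 0.35 in LNCaP and -0.34 in PC-3. In PC-3 the highest genes after EEF2K (1.22-fold, 1.07 to 1.39) and EIF5B were EIF3A (1.18-fold), EIF4G1 (1.17-fold) and EIF3CL (1.16-fold), all less than 25% higher.

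The difference between the lines in the coculture log2 fold was taken gene by gene, as the LNCaP log2 fold minus the PC-3 log2 fold. Of 63 genes measured in both, 46 differences were above 0, with a median of 0.11, where 6810 of 13005 genes were above 0 and the median was 0.02. The 95% counting interval lay above 0 for 27 translation factors and below 0 for 8. The intervals were not counted over all genes, so whether these shares are particular to translation factors is not known. Among the largest were EIF2B3 at 0.74 (0.38 to 1.10), EIF4E3 at 0.69 (0.34 to 1.04), EIF5AL1 at 0.60 (0.40 to 0.79) and EIF2B2 at 0.55 (0.26 to 0.84). EEF2K at -0.49 (-0.71 to -0.26) and EEF1B2 at -0.41 (-0.54 to -0.27) lay at the other end. These intervals hold no spread between tissues.

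Among other genes of protein synthesis, those of ribosomal proteins gave the largest coculture differences of the lists counted. Of 80 cytosolic ribosomal protein genes, 79 were below 0 in either coculture, 70 at least 20% lower in LNCaP (median -0.73) and 63 in PC-3 (median -0.44). After the length and GC correction 55 were at least 20% lower in LNCaP (median -0.50) and 18 in PC-3 (median -0.26). Of 20 cytosolic aminoacyl-tRNA synthetases, which charge tRNAs, 18 were above 0 in either coculture, 5 of them at least 25% higher in LNCaP (median 0.21) and 0 in PC-3 (median 0.11). Of 13 genes of the ATF4 stress programme, 12 were below 0 in LNCaP coculture and 11 in PC-3 coculture. Among them 0 were at least 25% higher in either coculture, and 3 were at least 20% lower in LNCaP and 2 in PC-3. Of 10 genes of the eIF2 alpha kinases and phosphatase, 2 were higher and 0 lower in LNCaP, and 0 higher and 1 lower in PC-3. Of 19 mTOR and MNK pathway genes, 1 was higher and 1 lower in LNCaP, and 1 higher and 0 lower in PC-3. The background for these lists was 16.8% higher and 19.3% lower in LNCaP, and 11.8% higher and 12.3% lower in PC-3. The 13 translation factor genes with a pyrimidine run had coculture medians of -0.03 in LNCaP and -0.14 in PC-3, beside 0.01 and -0.08 for those without.

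Transcript length moved with the coculture differences. Among the shortest 25% of transcripts (87 to 1847 nt, which held 71 of the 80 ribosomal protein genes) the median over all genes was -0.13 in either coculture. The 23 translation factors of that length in LNCaP had a median of -0.15 and the 21 in PC-3 one of -0.16. With the length and GC correction, EEF1A1 was still at least 20% lower in both (-0.44 in LNCaP and -0.37 in PC-3), EEF1B2 in LNCaP only (-0.42, against -0.13 in PC-3), and EIF4EBP1 in neither (-0.03 in LNCaP and -0.25 in PC-3). The correction also took EIF1B, EIF4EBP3 and EIF4G3 within these thresholds in LNCaP, and EIF1B, EIF4E3 and EEF1AKMT1 in PC-3, where EIF1 (-0.33) and EEF1AKMT3 passed 20% downward. With DESeq2 size factors, EIF1B and EIF4EBP1 were within the thresholds in LNCaP. Ribosomal RNA genes took 1.23% of counts in LNCaP coculture against 1.46% in its monoculture, and 2.16% in PC-3 coculture against 0.751% in its monoculture. The part of fibroblast RNA, of transcript length and of ribosomal RNA in these differences was not tested.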

How the data were processed

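Total RNA (QIAshredder and RNeasy) was made into libraries with TruSeq RNA v2, which does not mark strand, per the labels' protocols. The series' design text gives RNA from more than 2 tissues per group, without saying whether RNA was pooled or libraries were merged. The authors deposited 1 table of estimated counts, with a row per gene symbol and no scaling between libraries. The submitters' processing notes name STAR, FastQC, Partek and hg38, whose roles and versions are not given in the sources used here. All 4 sample columns were used. Between 33.7% and 34.1% of values per library were not whole, and counts were rounded.

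TMM factors (edgeR 4.0.16, R 4.3.3) scaled the counts to CPM, and log2 folds used a prior count of 2 on genes that reached 1 CPM in either library of a comparison. Fold intervals are exact conditional binomial intervals at 95%, and the interval of a difference between folds used the delta method. A gene at 0 was given a bound from 3 counts. Transcript lengths came from GENCODE 29 and gene positions and starts from RefSeq. Other steps used Python 3.11.15, pandas 2.3.3 and scipy 1.17.1. The fold and interval code was tested on simulated data. Positions count from 1.

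The genes were taken by the symbol rule alone, and this rule, the role groups and the lists were set with earlier results of these data known. Named genes were a list of core factors and, per comparison, the 5 highest and 5 lowest. Alternatives changed the scaling (DESeq2 1.42.0 size factors among them), prior count, filter and rounding, or left out genes with near-copies. The length and GC correction, in 20 bins each, was added after seeing the data. With 1 library per group no replicate could be left out.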

Additional observations from a re-analysis of the deposited data

Results flagged for a closer look

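For 8 translation factor genes the coculture level was above the monoculture level in 1 line and below it in the other. The counting interval of each fold lay away from 1. None of these differences was tested, since each group had 1 library. Genes meeting this rule were not counted over all genes, so whether the 8 are particular to translation factors is not known. The values are the LNCaP coculture log2 fold minus that of PC-3. EIF2B3, a subunit of the eIF2 exchange factor, had a difference of 0.74 and EIF4E3, a cap-binding paralogue, one of 0.69. The eIF3 subunits EIF3M and EIF3H had differences of 0.42 and 0.38. EIF4G2, a scaffold without an eIF4E site, had 0.31, EIF2S3, the gamma subunit of eIF2, 0.16, and the translocase EEF2 0.073. EEF2K, the eEF2 kinase, was higher in the PC-3 coculture and lower in the LNCaP coculture, with a difference of -0.49. After the length and GC correction EIF3M (-6.1e-05 in LNCaP and -0.31 in PC-3) and EIF2S3 (-0.0092 and -0.066) no longer went opposite ways, and the other 6 still did. The fibroblast markers were higher in both cocultures, and their part in these differences was not tested.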

How the results depend on the processing

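The median of the 65 genes in LNCaP coculture lay near 0 and changed sign: -0.01 with TMM factors, 0.03 with DESeq2 size factors, 0.04 with TMM factors without ribosomal genes, and within 0.01 of 0 with plain totals, with the correction for length and GC content, or at 5 CPM or more. The medians of the translation factors in the other comparisons kept their sign. Between the monocultures the median was 0.07 with TMM factors and 0.0043 with DESeq2 size factors. The split there went from 37 genes above 0 and 28 below to 33 and 32 with DESeq2 size factors. It was also 33 and 32 after the length and GC correction, with a median of 0.13. In that coculture the median of the eIF2 group was 0.077 and, after the correction, -0.013. With no low-count filter, or with a mean of 1 CPM over the 4 libraries, 1 gene was at least 25% higher in PC-3 coculture (EIF1AY, 1 count against 0) in place of 0. After the length and GC correction, 5 genes in place of 8 were at least 20% lower in the PC-3 coculture and 4 in place of 7 in the LNCaP coculture, and the median of the cocultures, LNCaP over PC-3, was 0.40 in place of 0.51. DESeq2 size factors took EIF1B and EIF4EBP1 out of the genes lower in the LNCaP coculture. Other scalings turned the sign of genes with a log2 fold of at most 0.04 in size, EEF1A2 in the LNCaP coculture among them. The length and GC correction turned 9 genes in LNCaP coculture with log2 folds up to 0.15 in size, 7 in PC-3 coculture up to 0.29, 5 between the cocultures up to 0.17 and 4 between the monocultures up to 0.15. No paired analysis was possible because each group had 1 library, and the spread between tissues is unknown. Reads cannot be assigned with certainty between near-copies, read-through genes or overlapping genes.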
